A study of Mus musculus with 4 samples.

Results

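The Fos and Jun genes encode the proteins that form AP-1, a family of dimeric transcription factors. All 7 listed members, Fos, Fosb, Fosl1, Fosl2, Jun, Junb and Jund, were found by their symbols among 18200 genes with an FPKM value (fragments scaled to gene length and library depth). The values come from polysome RNA, messenger RNA carrying several ribosomes, of mouse cells labelled ADSCs with genotype WT. The labels give 2 libraries as Scrambled, here Sc-1 and Sc-2, and 2 as IFIT1 knockdown, here Kd-1 and Kd-2, which the design text calls sh-Ifit1. Sc-1 and Kd-1 are labelled batch 1, Sc-2 and Kd-2 batch 2. The series title names mesenchymal stem cells, translational suppression and myogenic differentiation. No total RNA was analysed here, so the amount of a messenger RNA and its loading with ribosomes cannot be told apart. The labels do not say whether the replicates came from separate cultures. The p-values therefore rest on a spread between libraries that may be technical. Over the 8750 genes compared, the median standard error was 0.0208. This was below the median error expected from fragment numbers alone, 0.0382, so the p-values may be too small. The fragment numbers were solved from the FPKM as smallest whole numbers, so the expected error can be too large for some genes.

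Each AP-1 protein has a basic region that contacts DNA and a leucine zipper that holds a dimer together. Jun proteins pair with each other or with Fos proteins, while Fos proteins need a Jun partner to form a stable dimer on DNA. The dimers bind TGACTCA and the related cAMP response element TGACGTCA. Fos, Fosb, Jun and Junb are classical immediate-early genes, switched on within minutes of growth factor, cytokine or stress signals, whereas Jund is expressed more constantly. In stromal cells AP-1 is known for its part in proliferation, matrix turnover and the response to wounding.

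The stretches below show what stands just before the start of 4 AP-1 genes whose polysome RNA did not all behave alike. They are the 120 bases before the annotated start, from the RefSeq promoter table of build GRCm38.p6, in the direction of transcription. Capitals mark TGACATCA in Jun, the AP-1-like site through which Jun is known to regulate itself, and TGACG, the core of the cAMP response element, in the others. They begin 45, 66, 60 and 106 bases before the start of Jun, Fos, Fosb and Junb. Jun lies on the minus strand at chr4:95052223-95052342, Fos on the plus strand at chr12:85473770-85473889, Fosb on the minus strand at chr7:19310046-19310165 and Junb on the minus strand at chr8:84978749-84978868.
Jun: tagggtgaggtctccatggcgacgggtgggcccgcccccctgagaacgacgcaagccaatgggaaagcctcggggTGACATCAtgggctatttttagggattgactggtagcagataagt
Fos: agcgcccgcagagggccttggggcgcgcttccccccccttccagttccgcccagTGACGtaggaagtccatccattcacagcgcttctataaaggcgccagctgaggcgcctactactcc
Fosb: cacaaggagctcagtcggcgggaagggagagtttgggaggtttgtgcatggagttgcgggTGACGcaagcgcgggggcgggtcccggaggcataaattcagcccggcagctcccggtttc
Junb: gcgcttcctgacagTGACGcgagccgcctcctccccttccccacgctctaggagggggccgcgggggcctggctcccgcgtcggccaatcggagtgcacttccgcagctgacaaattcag

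The promoter table matched 6 of the 7 members, all but Fosl1, with windows from 250 bases before to 50 after the start. Read on both strands, TGACATCA stood in 3.62% of all 32851 windows and in Jun among the members. TGACG, which is also part of TGACGTCA, stood in 20.8% of all windows, in 38.5% of the tested genes with a window and in 3 members, Fos, Fosb and Junb. Neither TGACTCA (5.2% of windows) nor TGACGTCA (1.79%) was in a member's window, which says only that these letters are not in those 300 bases. A match is a description of the sequence, not a measured binding site.

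Ifit1, the gene named as the target, had 1.93 and 1.91 FPKM in Sc-1 and Sc-2 but 13.9 and 14.8 FPKM in Kd-1 and Kd-2. This is opposite to the label, so higher and lower always compare the libraries labelled Kd with those labelled Sc, whatever their true state. The libraries did not pair by batch: across 8750 genes, replicate 2 minus replicate 1 ran in opposite directions in the groups (Pearson's r -0.83 across genes, which are not independent replicates), so that Sc-1 resembled Kd-2 and Sc-2 resembled Kd-1 where replicates differed. Recovered fragments, whole numbers solved from the FPKM values, summed to between 24448952 and 29825482 per library. Markers of stromal cells summed to 162 and 163 FPKM in the libraries labelled Sc and to 138 in both labelled Kd. Of the 12 listed, 8 were tested (Nt5e, Pdgfra, Pdgfrb and Alcam were too low), and 6 of these were higher and 2 lower. Among all tested genes, 27.4% were higher and 41.2% lower (limma adjusted p under 0.05). The median log2 difference of the 8 was 0.50, against -0.02 for all tested genes. The sum of the stromal markers and most of its members thus went in opposite directions. Matched leukocyte markers (4 of 9) summed to between 5.54 and 6.44 FPKM over the libraries. Adipocyte markers (3 of 6) summed to 5.65 and 5.67 against 2.43 and 2.48, and endothelial markers (3 of 6) were at most 0.0191. No matched marker was listed at 0 in all libraries, Vwf and the other endothelial genes being near it, and the part of such cells in the results was not tested.

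Of the Jun and Fos genes, Jund showed the largest difference. Its mean was 1.88-fold higher in the libraries labelled Kd, and Junb was also higher, while Jun and Fosl2 were lower. Fosb, which was too low to be tested, also had lower values. Fos and Fosl1 had nearly the same means in both groups, but their replicates split in opposite directions. Of the 7 members, 6 had a mean of at least 1 FPKM and were tested. Of these 6, limma with Benjamini-Hochberg adjustment over 8750 genes called 2 higher and 2 lower, and 2 did not pass. That is 66.7% of the members, against 68.7% of all tested genes, of which 27.4% were higher and 41.2% lower. The share of AP-1 genes that changed was close to this background. The FPKM of both groups did not overlap for 4 of the 6, against 74.5% of all tested genes. Their median log2 difference, -0.02, equalled that of all tested genes.

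**Figure D1:**
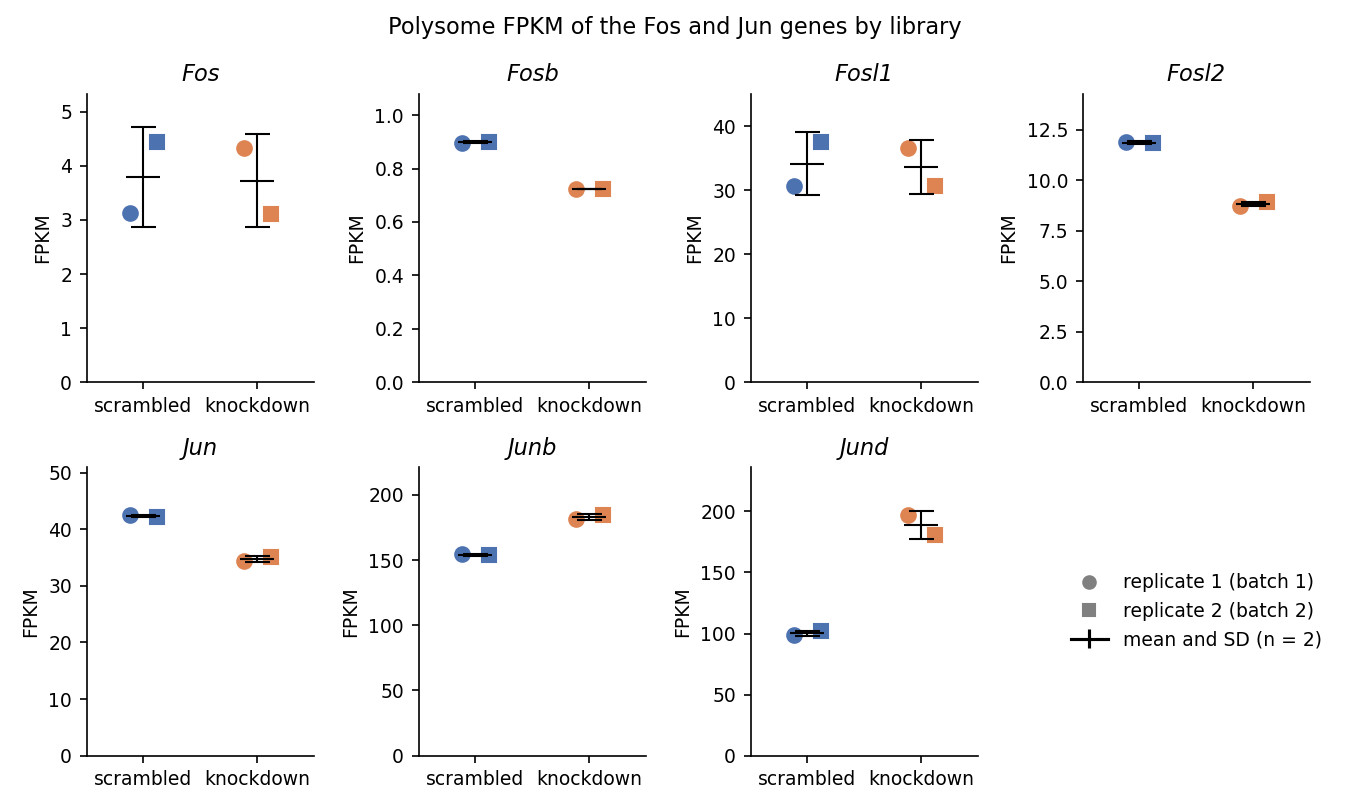
FPKM of each member (vertical axes, from 0) in the 4 libraries, scrambled in blue and knockdown in orange, circles for replicate 1 and squares for replicate 2, with the mean and SD of each group (n = 2). Jund and Junb sit higher and Jun, Fosl2 and Fosb lower in the libraries labelled Kd, while Fos and Fosl1 have 1 high and 1 low library in each group.

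Among the Jun genes, Jund (Entrez 16478), the member expressed most constantly in many cells and known to slow the growth of fibroblasts, had 98.6 and 102 FPKM in the libraries labelled Sc and 197 and 180.4 FPKM in those labelled Kd. Both libraries labelled Kd were above both labelled Sc. The means were 100.2 ± 2.14 (SD, n = 2) and 189 ± 11.7 FPKM (SD, n = 2). The log2 difference on log2(FPKM + 1) was 0.91 (SE 0.056, limma adjusted p = 8.3e-04), and 552 tested genes (6.31%) had a more positive one. It was 0.99 in batch 1 and 0.82 in batch 2. The libraries labelled Kd-1 and Kd-2 differed from each other (Kd-2 minus Kd-1) by -8.85 counting SDs, that is, SDs expected from the fragment numbers (22349 and 18785) alone. The antisense gene Gm11175 lies within Jund in the GENCODE annotation, and the labels do not give the strand used in counting, so reads of both cannot be told apart.

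Junb (Entrez 16477), which forms weaker activators than Jun and can restrain it, was the most abundant member in the libraries labelled Sc. There it had 155 and 154 FPKM, and in Kd-1 and Kd-2 it had 181 and 184 FPKM, without overlap. The means were 154 ± 0.753 and 183 ± 2.26 FPKM (SD, n = 2 each), a fold of 1.19. The log2 difference was 0.24 (SE 0.019, limma adjusted p = 0.0016). Batch 1 gave 0.23 and batch 2 gave 0.26. This call depended on how the libraries were scaled. All FPKM summed to 598188 and 616504 in the libraries labelled Sc and to 701936 and 680137 in those labelled Kd. With equal summed FPKM in every library, an alternative chosen after the data were seen, Junb differed by 0.06 (limma adjusted p = 0.43), while centring on the library medians gave 0.42 and quantile normalization 0.12 (limma adjusted p = 0.046). Prdx2, which overlaps the end of Junb on the opposite strand in GENCODE but not in RefSeq, did not pass (log2 -0.11, limma adjusted p = 0.1).

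Jun (Entrez 16476), the strongest activator of the family and a driver of cell cycle entry, was lower. It had 42.5 and 42.2 FPKM in Sc-1 and Sc-2 but 34.4 and 35.1 FPKM in Kd-1 and Kd-2, again without overlap. The means of 42.3 ± 0.222 and 34.7 ± 0.485 FPKM (SD, n = 2 each) differed by a fold of 0.821, and the log2 difference was -0.28 (SE 0.019, limma adjusted p = 0.0012). Batches gave -0.30 and -0.26. After median-centring, which moved the median difference of all tested genes from -0.02 to 0.15, Jun did not pass (log2 -0.10, limma adjusted p = 0.11), and with equal summed FPKM, which moved that median to -0.20, it was at -0.46. Junos, antisense to Jun, had at most 0.0243 FPKM in any library.

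With Jun lower and Jund higher, the make-up of the Jun family shifted. Summed FPKM of the 3 Jun genes was 296 and 298 in the libraries labelled Sc and 413 and 400.0 in those labelled Kd. Jund made up 33.3% and 34.2% of that sum in the libraries labelled Sc and 47.7% and 45.1% in those labelled Kd. The share of Jun went from 14.4% and 14.2% to 8.34% and 8.77%. Ratios inside a library do not change when all its values are multiplied by 1 factor. The FPKM of Jund was 2.32 and 2.41 times that of Jun in the libraries labelled Sc and 5.72 and 5.14 times in those labelled Kd. Against Junb, Jund stood at 0.637 and 0.662 in the former and at 1.09 and 0.978 in the latter. These sums and ratios are descriptions and were not tested.

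**Figure D2:**
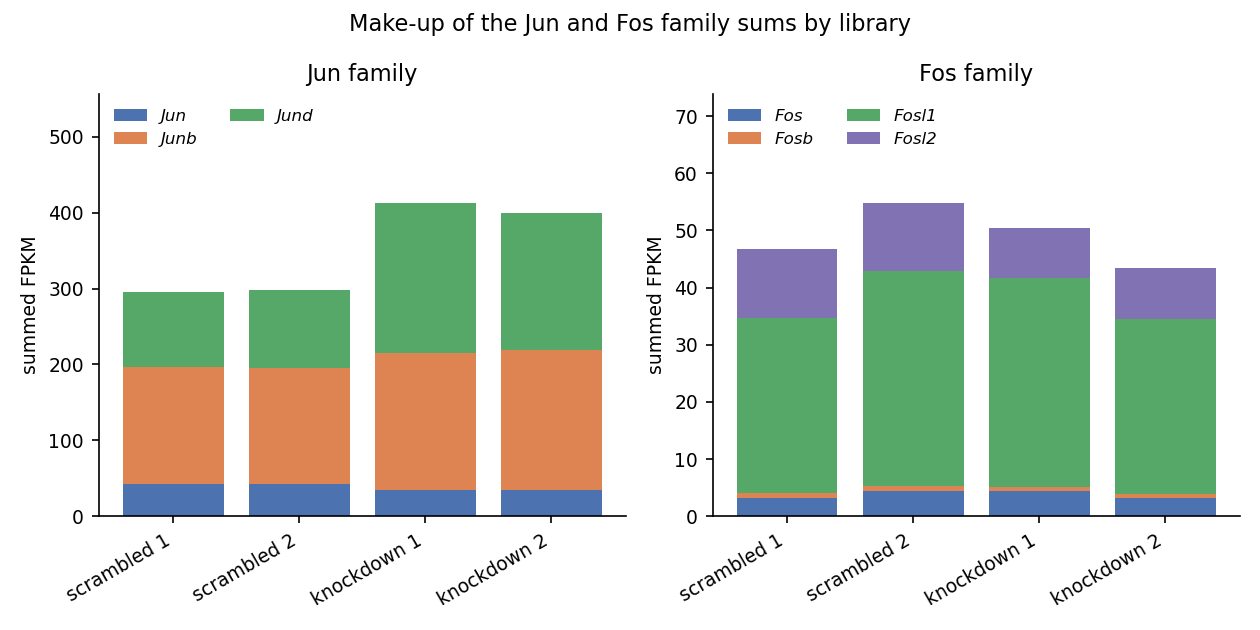
Summed FPKM (vertical axes, from 0) of the Jun genes (left) and of the Fos genes (right) in each of the 4 libraries, stacked by gene. The Jun sums are 296 and 298 in the libraries labelled Sc and 413 and 400.0 in those labelled Kd, with most of the added height in Jund, while the Fos sums range from 43.4 to 54.8 with Fosl1 as the largest part in every library.

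Fosl2 (Entrez 14284), also called Fra-2, lacks the strong activation domain of Fos and is known for roles in bone and fat cells. It was the only one of the 3 tested Fos genes to pass the threshold. Sc-1 and Sc-2 held 11.9 and 11.8 FPKM, Kd-1 and Kd-2 held 8.75 and 8.91, without overlap. The means were 11.9 ± 0.0634 and 8.83 ± 0.115 FPKM (SD, n = 2 each), and the log2 difference was -0.39 (SE 0.018, limma adjusted p = 3.9e-04). Within batches it was -0.41 and -0.37. It was -0.22 after median-centring (limma adjusted p = 0.012) and -0.25 after quantile normalization (limma adjusted p = 0.0061).

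Fosb (Entrez 14282), an inducible member whose short splice form accumulates in neurons, was the least abundant and fell below the 1 FPKM filter. It had 0.897 and 0.901 FPKM in the libraries labelled Sc and 0.725 and 0.724 in those labelled Kd, from 109, 133, 108 and 99 fragments. The groups did not overlap, and the ratio of means was 0.806. Its replicates differed by at most 0.04 counting SDs. Without the filter, where its log2 difference was -0.14, it passed (limma adjusted p = 0.0032), with a counting error of 0.061 on that difference. The setting in which no standard error could fall below its counting error kept the filter, so whether Fosb would pass there was not tested.

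Fos (Entrez 14281), the prototype immediate-early gene, had 3.14 and 4.45 FPKM in the libraries labelled Sc-1 and Sc-2 and 4.34 and 3.12 FPKM in those labelled Kd-1 and Kd-2. The groups overlapped fully, each with 1 low and 1 high library. Means were 3.79 ± 0.929 and 3.73 ± 0.863 FPKM (SD, n = 2 each), and the log2 difference was -0.02 (SE 0.22, limma adjusted p = 0.99), with a 95% interval from -0.72 to 0.68. The interval leaves room for a change of the size seen in Fosl2 or Jun. Within batch 1 Fos was higher by 0.37 in the library labelled Kd and within batch 2 it was lower (-0.40).

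Fosl1 (Entrez 14283), also called Fra-1, is a Fos gene tied to migration and is itself a target of AP-1. It was the most abundant Fos gene, with 30.7 and 37.6 FPKM in the libraries labelled Sc-1 and Sc-2 and 36.7 and 30.6 FPKM in those labelled Kd-1 and Kd-2. As for Fos, the high libraries were Sc-2 and Kd-1. Means were 34.2 ± 4.87 and 33.6 ± 4.28 FPKM (SD, n = 2 each), the log2 difference was -0.02 (SE 0.15, limma adjusted p = 0.99) and its 95% interval ran from -0.51 to 0.47. Batch 1 gave 0.25 and batch 2 gave -0.29. Ccdc85b overlaps Fosl1 on the opposite strand over 2767 bases in GENCODE, and its FPKM went from 37.4 and 36.4 to 65.3 and 64.2 (limma adjusted p = 1.9e-04), so reads shared between them could reach either value.

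**Figure D3:**
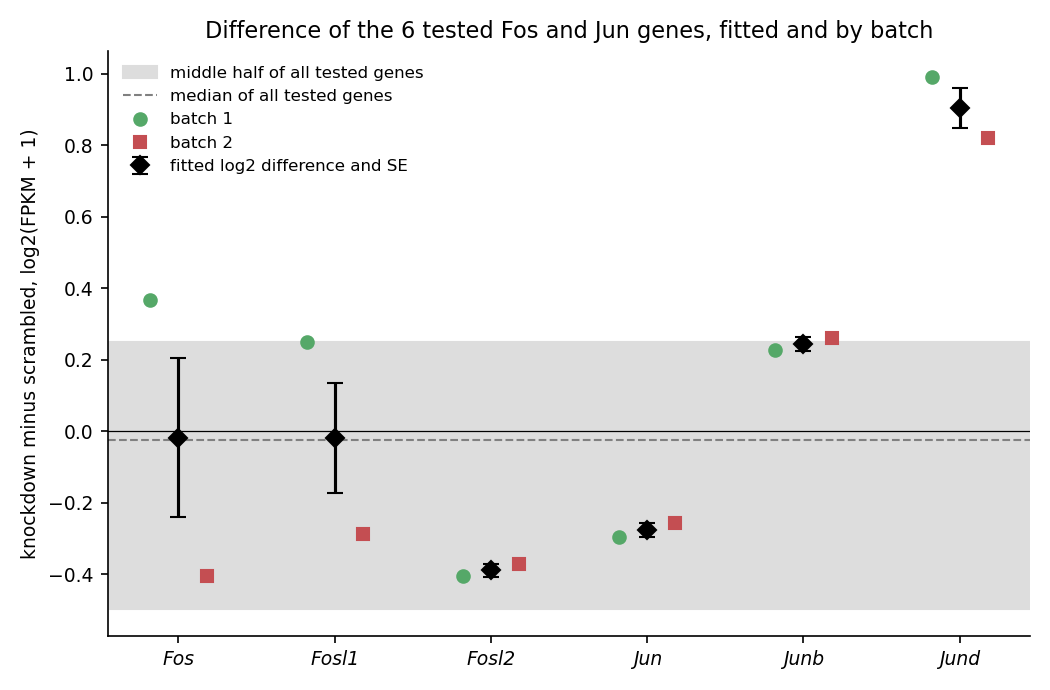
Difference in log2(FPKM + 1) between libraries labelled Kd and scrambled (vertical axis) for the 6 tested members: black diamonds with SE for the fit, green circles for batch 1, red squares for batch 2, the dashed line for the median of all tested genes (-0.02) and the grey band for their quartiles (-0.50 to 0.25). Fos and Fosl1 have opposite signs in the batches, and Jund at 0.91 lies outside the band.

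The levels of the members kept a wide range. In the libraries labelled Sc the order by FPKM, which is per length and so comparable between genes, was Junb, Jund, Jun, Fosl1, Fosl2, Fos and Fosb. Jun at 42.5 and 42.2 FPKM and Fosl1 at up to 37.6 FPKM were the closest neighbours by ratio, and their values did not overlap. In the libraries labelled Kd, Jund and Junb did not differ beyond their spread (180.4 to 197 against 181 to 184 FPKM), nor did Jun and Fosl1 (34.4 to 35.1 against 30.6 to 36.7 FPKM). The summed Jun genes exceeded the summed Fos genes by 6.34 and 5.43 times in the libraries labelled Sc and by 8.17 and 9.22 times in those labelled Kd. Fosl1 held 65.8% to 72.6% of the Fos sum. Taken over all tested genes, Junb lay at percentile 93.1 of mean FPKM in the libraries labelled Sc and Fos at percentile 29.7.

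The spread of Fos and Fosl1 between replicates was far above counting error. Fos differed between the replicates labelled Sc by 4.1 counting SDs and between those labelled Kd by -3.99, in the other direction, from 213, 367, 361 and 238 fragments. For Fosl1 these were 6.43 and -5.9 counting SDs. Across the labels the values matched closely, since the FPKM of Fos in the library labelled Kd-2 was 0.994 of that in Sc-1, and in Kd-1 it was 0.975 of that in Sc-2. For Fosl1 the same ratios were 0.997 and 0.975. Jun, Fosl2 and Fosb showed no such split, with replicates within 0.9 counting SDs of each other, nor did Junb, whose Kd replicates differed by 1.4 counting SDs once its fragment numbers were multiplied by the divisor of 3 that its length points to. With the recovered fragments of Fosl2 and Jun taken as complete, their standard errors (0.018 and 0.019) were even below the counting errors of the same differences (0.026 and 0.021). Both still passed when no standard error was allowed below its counting error. That setting gave 2249 higher and 3480 lower genes in all, against 2401 and 3608.

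This split was common in the table and ran along 1 line. Of 8693 tested genes with recovered fragments, 1314 (15.1%) were higher in Sc-2 than 1 and in Kd-1 than 2, each by over 2 counting SDs, and 840 (9.66%) were the reverse. Differences between replicates 1 and 2 that ran the same way in both groups were found in 25 genes (0.288%). By this rule 3 of the 6 tested members split, Fos, Fosl1 and Jund, the last with both its differences small beside that between groups. Of the 1314 genes, 877 (66.7%) had both ratios across the labels within 5% of 1, against 19.0% of all tested genes. The latter include the 68.7% called between the groups, so these shares are not like for like.

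**Figure D4:**
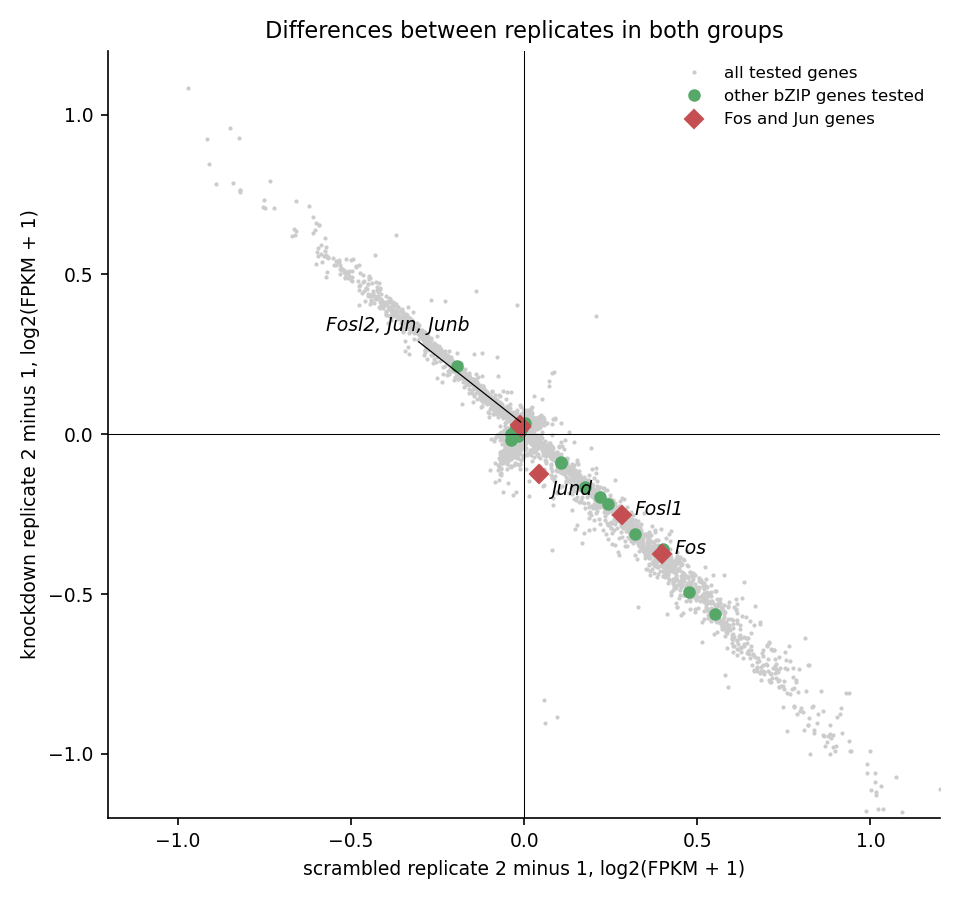
Replicate 2 minus replicate 1 in log2(FPKM + 1), for the libraries labelled Sc (horizontal axis) and knockdown (vertical axis), with all tested genes in grey, other basic leucine zipper genes in green and the tested Fos and Jun genes as red diamonds. Genes away from the centre lie along a falling line on which Fos (0.40, -0.37) and Fosl1 (0.28, -0.25) sit, and 10 genes lie outside the axes.

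Other basic leucine zipper genes, whose products can pair with Fos or Jun proteins or compete for their sites, were divided. Of 33 listed, 23 were tested, and 6 were higher (26.1%), 7 lower (30.4%) and 10 not past the threshold, with a median of -0.02. Among all tested genes 27.4% were higher and 41.2% lower. Cebpd, an inflammation-induced factor of early fat cell formation, rose from 15.3 and 15.2 to 49.5 and 50.2 FPKM (log2 1.64). Maff, a small Maf protein without an activation domain, rose from 23.5 and 23.4 to 65.0 and 65.9 FPKM. Atf7, a stress-regulated partner of Jun, fell from 4.18 and 4.09 to 1.46 and 1.48 FPKM. Maf, of the large Maf proteins, fell from 2.06 and 1.99 to 0.606 and 0.607 FPKM. It passed the 1 FPKM filter only through the libraries labelled Sc. Ddit3, induced by stress of the endoplasmic reticulum, had 20.05 and 28.3 FPKM in Sc-1 and Sc-2 and 28.7 and 20.1 in Kd-1 and Kd-2, with the same split as Fos (log2 0.01, limma adjusted p = 0.99). That split was found in 9 of the 23 (39.1%), Atf3, Atf4, Batf3, Mafg, Mafk, Nfe2l1, Cebpb, Cebpg and Ddit3, against 15.1% of all tested genes. Of these, Atf3, an immediate-early partner of Jun, had 21.9, 26.1, 25.4 and 21.7 FPKM, and is given after its values were seen.

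Genes of the MAP kinase pathways, which switch on Fos transcription and phosphorylate Jun, had more members lower than higher, as did all tested genes (41.2% lower, 27.4% higher). Of 38 listed, 29 were tested, with 6 higher (20.7%), 17 lower (58.6%) and 6 not past, and a median of -0.19. Mapk14, the stress kinase p38alpha, fell from 26.3 and 26.1 to 9.13 and 9.34 FPKM (log2 -1.41). Map3k4, an upstream activator of p38 and JNK, fell from 3.58 and 3.53 to 1.28 and 1.31 FPKM. Mapk3, an ERK kinase gene, rose from 112 and 111 to 192 and 195 FPKM. Mapk8, a JNK gene whose product phosphorylates Jun, did not pass (log2 -0.02, limma adjusted p = 0.99), at 6.89, 5.30, 5.20 and 6.80 FPKM, a split in the reverse sense to that of Fos.

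Serum response factor and the factors that act with it or with MAP kinases on immediate-early promoters had 6 tested genes of 9 listed, with 1 higher, 2 lower and 3 not past, beside 68.7% of all tested genes called. Elk1, a ternary complex factor at the Fos promoter, rose from 9.52 and 9.22 to 19.6 and 19.0 FPKM. Mrtfa, an actin-regulated coactivator of serum response factor, fell from 13.3 and 13.1 to 8.25 and 8.41 FPKM, and Mef2d, which acts on the Jun promoter, from 11.4 and 11.5 to 6.66 and 6.87 FPKM. Mef2a (log2 0.02, limma adjusted p = 0.78) and Elk3 (log2 -0.02, limma adjusted p = 0.99) did not pass.

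Among immediate-early and early response genes, 26 of 31 listed were tested, with 6 higher (23.1%), 13 lower and 7 not past, and a median of -0.13, beside 27.4% higher and 41.2% lower of all tested genes. Their summed FPKM was 1444 and 1569 in the libraries labelled Sc and 1087 and 1002 in those labelled Kd. Dusp1, a phosphatase that switches off p38 and JNK, fell from 45.2 and 45.3 to 18.8 and 19.2 FPKM (log2 -1.21). Zfp36l2 and Zfp36l1, which promote decay of messenger RNAs with AU-rich elements, fell from 27.5 and 27.7 to 9.42 and 9.66 FPKM and from 11.0 and 10.9 to 5.42 and 5.49 FPKM. Btg2, an antiproliferative gene induced by p53, rose from 3.86 and 3.82 to 10.2 FPKM in both libraries. Btg1 did not pass (log2 -0.02, limma adjusted p = 0.99), at 6.35, 9.61, 9.25 and 6.36 FPKM. It shared the split of Fos with Egr1, Ier2, Ier3 and Arc, 5 of the 26 (19.2%, against 15.1% of tested genes). Egr1, induced through the same promoter elements as Fos, had 57.4 and 79.2 FPKM in Sc-1 and Sc-2 and 77.2 and 56.9 FPKM in Kd-1 and Kd-2, and is given after its values were seen.

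Genes that control the stability or activity of AP-1 proteins also had more members lower than higher, again beside 41.2% lower and 27.4% higher among all tested genes. Of 20 listed, 17 were tested, with 2 higher (11.8%), 11 lower (64.7%) and 4 not past, and a median of -0.48. Gsk3b, a kinase that marks Jun for destruction, fell from 4.10 and 4.08 to 1.94 and 1.99 FPKM, and Csnk2a1, the catalytic subunit of casein kinase 2 that phosphorylates Jun, from 7.64 and 7.56 to 3.37 and 3.43 FPKM. The corepressor Ncor1 fell from 2.57 and 2.54 to 1.01 and 1.02 FPKM. Cop1, a ubiquitin ligase of Jun, had 2.36, 3.66, 3.57 and 2.34 FPKM, again split as Fos was (log2 -0.02, limma adjusted p = 0.99).

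Genes described elsewhere as AP-1 targets, which answer to many other factors too, had more members higher than lower, where all tested genes had 27.4% higher and 41.2% lower. Of 40 listed, 29 were tested, with 15 higher (51.7%), 9 lower (31.0%) and 5 not past, and a median of 0.37 beside -0.02 for all tested genes. The difference from other genes was not tested for this list or for the lists before it. Spp1, the secreted matrix protein osteopontin, rose from 2.98 in both libraries to 16.8 and 17.3 FPKM (log2 2.18). Hmga1, a chromatin protein of proliferating cells, rose from 219.5 and 216 to 590 and 583 FPKM. Krt18, a simple epithelial keratin with pseudogenes that can share its reads, had 0.466 and 0.475 FPKM (21 and 26 fragments) in the libraries labelled Sc. In those labelled Kd it had 2.84 and 2.94 FPKM (157 and 149 fragments). It passed the 1 FPKM filter only through the libraries labelled Kd, so its place among the 15 higher genes depends on them. Nqo1, a quinone reductase of the antioxidant response, fell from 29.1 and 28.1 to 9.32 and 9.41 FPKM. Mt2, a metallothionein, had 18.4, 31.3, 31.3 and 17.9 FPKM in Sc-1, Sc-2, Kd-1 and Kd-2 (log2 -0.02, limma adjusted p = 0.99).

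Genes with TGACTCA in the promoter window had the same median difference as all tested genes with a window. Of 7041 tested genes with a promoter window, 296 held TGACTCA, and 97 of these were higher (32.8%) and 110 lower (37.2%), with a median of -0.02. Over all 7041 genes, 27.2% were higher and 41.1% lower, with the same median. For TGACGTCA, in 271 genes, 31.0% were higher and 36.5% lower.

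Jund was compared over the 4 libraries with the 130 tested genes of these lists, by the distance between profiles of log2(FPKM + 1) centred on each gene's mean. The closest were Elk1 (distance 0.107), Atf5 (0.108) and Cdkn1a (0.146). Atf5, a basic leucine zipper factor of the stress response, had 137 and 134 FPKM in the libraries labelled Sc and 247 and 244 in those labelled Kd. Cdkn1a, the cell cycle inhibitor p21, had 47.5 and 47.3 against 93.7 and 96.2 FPKM. With 4 libraries in 2 groups, such likeness reflects little more than a difference of similar size. The reference genes Actb (2838 and 2809 against 1809 and 1842 FPKM) and Gapdh (275 and 163 against 161 and 268 FPKM) were themselves not constant.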

How the data were processed

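The FPKM values were computed by the authors and deposited in 1 table. Per the labels, RNA was taken up in Trizol and mRNA captured on beads. The submitters' processing notes name the builds GRCm38, mm10 and GRCm39. For aligner, counter, annotation and strandedness: not given in the sources used here. All 4 value columns were used.

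Genes with a mean of at least 1 FPKM (8750) were compared on log2(FPKM + 1) with limma 3.58.1 under R 4.3.3 (a linear model with eBayes, trended, no batch term), two-sided, Benjamini-Hochberg over all 8750, threshold 0.05, n = 2 per group. Scripts used Python 3.11.15, and were tested on simulated data. Replicate number and batch coincide in the labels, which pairs the replicates. The check of that pairing, Pearson's r of the replicate 2 minus 1 differences of both groups across 8750 genes, gave -0.83.

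FPKM were turned into smallest whole fragment numbers (relative tolerance 3e-08) for 8693 tested genes (99.3%). These can be divided by a common factor, as for Junb, where length points to a divisor of 3. They cover counting error only.

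Members and lists were chosen with earlier results of these data known. Named were the members, Ifit1, Actb and Gapdh, the 4 genes of smallest and the gene of largest p per list, and 3 genes most like Jund. Of the genes this rule gives, 2 are not reported here.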

Additional observations from a re-analysis of the deposited data

How the results depend on the processing

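Under all alternatives run but the crossed pairing, for which only counts are given, Jund stayed higher and Fosl2 lower and past the threshold. Without 1 replicate in turn, Jund ranged from 0.84 to 0.97, Fosl2 from -0.40 to -0.38, Jun from -0.29 to -0.26 and Junb from 0.23 to 0.26, all past the threshold. Fos ranged from -0.22 to 0.18 and Fosl1 from -0.16 to 0.12, positive without Sc-2 or Kd-2. After median-centring Fos was at 0.15, Fosl1 at 0.15 and Jun at -0.10, so that 1 member was lower. After quantile normalization Fos was at 0.11 and Fosl1 at 0.04. With equal summed FPKM, chosen after the data were seen, Junb was at 0.06 and 1 member was higher. For the scalings, the cause was not tested. Fosb moved from -0.14 to -0.28 with a pseudocount of 0.1, which shrinks low values less. The replicate block changed no call among the members (2 higher, 2 lower; Fosl2 limma adjusted p = 0.01, Jund 0.0087) and gave 2205 higher and 3417 lower genes in all, against 2401 and 3608. The crossed pairing, chosen after the data were seen, gave 2962 and 4282, with 2 members higher and 2 lower. Without the filter 3819 genes were higher and 4679 lower, and at 5 FPKM 1583 were higher and 2213 lower, since other numbers of genes were tested. Among the other genes named, the sign turned only for genes that had not passed. Median-centring gave Mapk8 0.15, Elk3 0.15, Btg1 0.15, Cop1 0.16, Mt2 0.16 and Gapdh 0.14. Quantile normalization gave Mapk8 0.13, Elk3 0.14, Btg1 0.14, Cop1 0.09 and Mt2 0.08. Equal sums gave Ddit3 -0.17 and Mef2a -0.08. Without 1 replicate in turn, Ddit3 ranged from -0.23 to 0.26, Mapk8 from -0.19 to 0.14, Mef2a from -0.02 to 0.07, Elk3 from -0.19 to 0.15, Btg1 from -0.29 to 0.24, Cop1 from -0.25 to 0.22, Mt2 from -0.40 to 0.37 and Gapdh from -0.40 to 0.35; the fits were limma's, with the lone sample taken to vary like the other group. The low fragment numbers of Fosb and Fos limit what they can show. For Fos the spread between replicates limits it more, with an SE of 0.22 against a counting error of 0.0675.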
